A study of Mus musculus with 22 samples.

Results

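The messenger RNA of 10 genes of the endoplasmic reticulum (ER) and integrated stress responses was followed across 22 libraries of cultured mouse neurons. The genes were Sdf2l1, Hspa5, Creld2, Manf, Herpud1, Xbp1, Atf4, Atf5, Ddit3 and Ddit4, which are 10 of the 24490 gene entries in each library's table, and each symbol matched 1 entry. They were picked by name, with earlier results of these data known. One of those results, a lower level of Sdf2l1 in S40A than in WT libraries at 8 h, formed part of the choice, so that difference is given below as a description without a test.

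When unfolded proteins gather in the ER, the sensors ATF6, IRE1 and PERK signal to the nucleus. ATF6 and the XBP1 protein made from the messenger that IRE1 splices raise ER chaperones and degradation factors, while PERK, like other kinases of the integrated stress response, phosphorylates the translation factor eIF2, which slows protein synthesis and favours translation of ATF4. In neurons these pathways are engaged by heavy secretory load, disturbed ER calcium, amino acid shortage and viral infection. A level of messenger RNA is 1 readout among several here, since ATF6 acts after cleavage, XBP1 after splicing and ATF4 and ATF5 after a change in translation.

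The neurons were cortical cells of C57BL/6 embryos (E16.5), labelled Creb1-/-, and every group shared that genotype, so all comparisons were made in cells labelled as lacking the endogenous transcription factor CREB. After 7 days in vitro they were infected with herpes simplex virus (HSV) vectors carrying S40A-S133A CREB, S133A CREB (without its phosphorylation site), S40A CREB (without a glycosylation site), WT CREB or GFP. All groups were silenced with TTX (1 µM), which blocks sodium channels, and D-AP5 (100 µM), which blocks NMDA receptors, and were depolarized for 2 h with 55 mM KCl. With 8 h of expression from the virus, 2 libraries each were made for S40A-S133A and S133A, and 4 each for S40A, WT and GFP. With 4 h, 2 each were made for S40A, WT and GFP. The sources used here state neither the promoter of the vectors nor the number of embryos behind a culture, and there were no uninfected or undepolarized libraries, so each value was measured under virus, blockers and KCl together.

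Libraries fell into 6 runs, taken from the numbering of the deposited files and the replicate numbers. Runs A and B held 1 library per group at 4 h. At 8 h, runs C1 and C2 held S40A, WT and GFP, and runs D1 and D2 held all 5 groups. No run held both times, so hours and runs cannot be told apart. The estimated depth was 19.4 to 33.3 M (mega) reads per library. Of the 22 libraries, 17 were most like another of their own run, but each library of run C2 was most like one of another run. Changes from run C1 to C2 did not go together between virus groups (correlations of -0.04 to 0.05). For runs A and B these correlations were 0.54 to 0.56, and for D1 and D2 they were 0.07 to 0.40. Differences within runs C1 and C2 thus pair libraries by number only. Replicate 2 of GFP at 8 h (run C2) stood apart: over all genes tested, its best correlation with another library was 0.859, while the other 21 had best correlations of 0.916 to 0.943, and differences of members from GFP at 8 h are given with and without it. The neuronal markers Tubb3 (254 to 492 scaled FPKM) and Map2 (102 to 226) were high in all libraries, while the microglial Cx3cr1 and Tmem119 and the endothelial Cldn5 stayed at or below 0.307, 0.279 and 0.306. Other microglial genes were present: 2 of 12 markers (Tyrobp and Cd68) reached a mean of 1 FPKM, and the list summed to between 3.59 and 40.6, highest in a WT library of run C2. Astrocyte and radial glia markers were present as well, with 9 of 9 at a mean of at least 1 FPKM. They summed to 87.5 to 848, beside 647 to 1083 for 10 excitatory neuron markers. Creb1, which the virus supplied, lay at 568 to 2312 scaled FPKM with a CREB virus at 8 h and 235 to 269 at 4 h, against 9.59 to 15.7 with GFP, so no label as CREB virus or GFP was contradicted. The CREB forms overlapped in Creb1 level at each time, so this level cannot check their labels against each other. The deleted exons are not stated, and the GFP level does not check the genotype.

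The promoters of 4 of the members are shown first: the 3 that hold a known ER stress element, and Sdf2l1 beside them. Windows from 250 bases before to 50 bases after the RefSeq start (GRCm38.p6) were found for 9 of the 10 genes, the exception being Manf. Capitals mark the ER stress element (ERSE, CCAAT and CCACG with 9 bases between them, read on both strands) in Hspa5 (chr2:34771840-34772139, + strand) and Creld2 (chr15:88819396-88819695, + strand), and the related ERSE-II (ATTGG and CCACG with 1 base between them) in Herpud1 (chr8:94386179-94386478, + strand). Sdf2l1 (chr16:17132334-17132633, - strand) has no capitals because neither motif was found in its window.
Hspa5: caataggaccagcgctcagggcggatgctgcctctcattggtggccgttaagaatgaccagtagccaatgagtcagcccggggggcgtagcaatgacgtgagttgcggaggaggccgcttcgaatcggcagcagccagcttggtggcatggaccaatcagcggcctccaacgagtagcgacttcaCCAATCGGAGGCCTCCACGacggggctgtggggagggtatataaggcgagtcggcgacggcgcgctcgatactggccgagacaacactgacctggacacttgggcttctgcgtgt
Creld2: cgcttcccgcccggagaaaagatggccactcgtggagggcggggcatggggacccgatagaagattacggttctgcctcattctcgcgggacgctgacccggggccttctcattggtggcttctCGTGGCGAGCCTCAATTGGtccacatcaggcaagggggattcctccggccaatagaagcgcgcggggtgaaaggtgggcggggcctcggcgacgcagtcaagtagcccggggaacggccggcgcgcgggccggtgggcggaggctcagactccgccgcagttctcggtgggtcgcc
Herpud1: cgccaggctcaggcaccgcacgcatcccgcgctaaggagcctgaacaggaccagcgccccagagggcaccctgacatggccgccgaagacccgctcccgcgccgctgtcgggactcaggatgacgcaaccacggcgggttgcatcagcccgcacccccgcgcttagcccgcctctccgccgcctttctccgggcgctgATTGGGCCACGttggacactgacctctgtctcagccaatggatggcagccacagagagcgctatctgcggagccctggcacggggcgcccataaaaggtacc
Sdf2l1: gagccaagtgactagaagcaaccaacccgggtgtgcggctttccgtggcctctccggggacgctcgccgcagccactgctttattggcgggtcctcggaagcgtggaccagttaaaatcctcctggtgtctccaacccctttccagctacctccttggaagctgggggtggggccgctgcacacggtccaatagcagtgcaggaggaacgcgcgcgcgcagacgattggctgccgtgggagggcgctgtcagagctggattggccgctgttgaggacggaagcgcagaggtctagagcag

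The ERSE began at position -65 in Hspa5 and, on the opposite strand, at -126 in Creld2, counted from the RefSeq start. It occurred in 0.119% of the 32851 mouse promoter windows of the same length. The ERSE-II of Herpud1 began at -52, and 0.0365% of all windows held that motif. The full cyclic AMP response element to which CREB binds (TGACGTCA) was in the window of 0 of the 9 genes and in 1.79% of all windows. Its half-site TGACG, which that element contains, was found in Hspa5, Herpud1 and Atf4 and in 20.8% of all windows. The XBP1-type element TGACGTGG (0.676% of all windows) and the composite C/EBP-ATF element TGATGNAAT (0.965%) were each in 0 of the 9. No ERSE or ERSE-II match overlapped a half-site match. A match describes letters in a window and not binding.

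Levels are given as FPKM, fragments per length of transcript and library size, scaled between libraries so that most genes have a ratio near 1. Because FPKM is per length, genes can be set side by side. Over the 22 libraries the median level was 291 scaled FPKM for Atf4, 231 for Hspa5 and 81.6 for Ddit4, followed by 37.4 for Xbp1. Herpud1 (24.2), Atf5 (24.2) and Manf (23.8) had like medians, Creld2 stood at 10.4, and Sdf2l1 was the lowest of the 9 genes measured in all libraries at 3.26. Ddit3 was listed at 0 in 19 of 22 libraries. All 10 reached the minimum mean of 1 FPKM used for testing, Ddit3 on the strength of 3 libraries. Differences below are of log2(scaled FPKM + 1), from limma fits over all 12085 genes tested, and called means an adjusted p under 0.05 (Benjamini-Hochberg over that whole table).

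**Figure D1:**
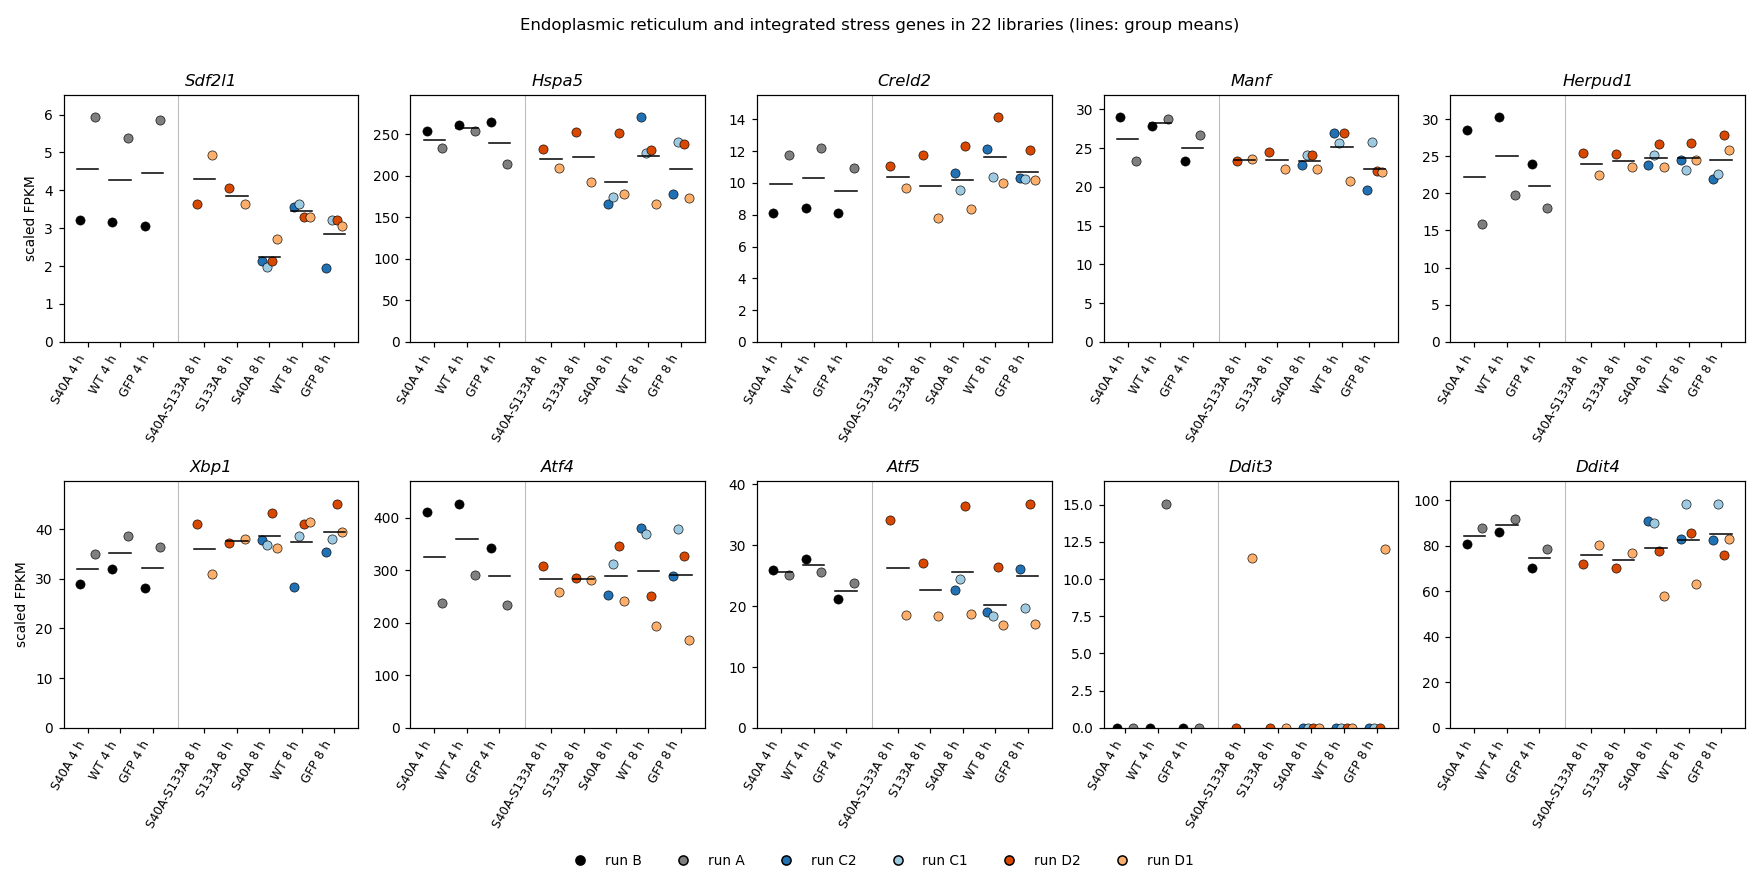
Scaled FPKM (linear y axis from 0) of the 10 genes in each of the 22 libraries, by virus group and hours on the x axis, coloured by run. Horizontal lines are group means (none for Ddit3, which is listed at 0 in 19 libraries). Sdf2l1 lies lower in all 4 S40A libraries at 8 h (1.99 to 2.71) than in the 4 WT libraries (3.30 to 3.65), and for Atf5 the run D2 points (26.4 to 36.9) all lie above the run D1 points (16.9 to 18.8).

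Sdf2l1 (chromosome 16, 17130138 to 17132383, mm10) encodes an ER lumen protein that works with the co-chaperone DNAJB11 and with BiP. It gave the result that was known when the genes were chosen. At 8 h it stood at 1.99, 2.13, 2.71 and 2.12 scaled FPKM in the S40A libraries (runs C1, C2, D1 and D2) and at 3.65, 3.56, 3.30 and 3.30 in the WT libraries of the same runs. The means were 2.24 ± 0.321 in S40A and 3.45 ± 0.179 in WT (SD, n = 4 each), and the groups did not overlap. Non-overlap in that comparison was seen for 2.75% of all genes tested, from which nothing is read because the gene was chosen on it. The difference, S40A minus WT, was -0.46, and within runs C1, C2, D1 and D2 it was -0.64, -0.54, -0.21 and -0.46. It ranged from -0.52 to -0.42 when any 1 library was left out and from -0.61 to -0.34 under the other settings.

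The other groups place those values. At 8 h Sdf2l1 was 4.94 and 3.64 in the S40A-S133A libraries (runs D1 and D2), 3.63 and 4.06 in the S133A libraries, and 3.22, 1.94, 3.06 and 3.22 in the GFP libraries (runs C1, C2, D1 and D2). The S40A libraries thus sat below GFP in runs C1, D1 and D2 (differences of -0.50, -0.13 and -0.43) and above it in run C2 (0.09), which holds the GFP library that stood apart. WT lay above GFP in all 4 runs, by 0.03 to 0.63, with the highest value again in run C2. Over the 8 h libraries, S40A minus GFP was -0.24 and WT minus GFP was 0.22, and without that GFP library they were -0.37 and 0.10, so the placing of GFP between the other groups depends on 1 library in size but not in sign. In the double mutant, which also lacks the S40 site, S40A-S133A minus S40A was 0.65, and within runs D1 and D2 it was 0.68 and 0.57. These differences contain S40A or WT and carry no test for the reason given above.

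Glial markers moved with these groups, and their part in the Sdf2l1 values was not tested. All 9 astrocyte and radial glia markers lay above 0 in S40A-S133A minus S40A (median 0.64) and below 0 in S40A minus GFP (median -0.35) and WT minus GFP (median -0.26), with 0 called in each. Their summed level at 8 h was 176 to 347 scaled FPKM in S40A-S133A, 139 to 293 in S133A, 87.5 to 209.8 in S40A, 117 to 229.6 in WT and 127 to 267 in GFP. The microglia markers summed to 7.37 to 9.17 in S40A-S133A, 7.48 to 9.14 in S133A, 3.59 to 5.66 in S40A, 4.84 to 40.6 in WT and 4.87 to 11.4 in GFP. In the microglia sum S40A lay below S40A-S133A and S133A, and in both sums it overlapped WT and GFP.

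Comparisons without those groups could be tested for Sdf2l1. S133A minus GFP was 0.29 (95% interval -0.06 to 0.65, adjusted p = 0.994) and S40A-S133A minus GFP was 0.41 (0.06 to 0.76, adjusted p = 0.976). Without replicate 2 of GFP they were 0.21 and 0.33 (adjusted p = 1 for each). Both groups lay above all 4 GFP libraries, as did 7.87% and 9.21% of all genes tested in one direction or the other, and neither difference passed the adjustment. S40A-S133A minus S133A was 0.12 (-0.27 to 0.50, adjusted p = 1), with opposite signs in the 2 runs. At 4 h, Sdf2l1 was 5.92 and 3.21 in S40A (runs A and B), 5.37 and 3.16 in WT, and 5.85 and 3.06 in GFP. S40A minus WT at 4 h was 0.07 (-1.10 to 1.23, adjusted p = 1) in the fit without the run. Within runs A and B it was 0.12 and 0.02, and with the run as a block its interval was -0.20 to 0.34 (adjusted p = 1), on 2 residual degrees of freedom. Sdf2l1 rests on few reads, an estimated 47 to 154 per library, for which counting error alone is 14.6% at the lowest and 8.06% at the highest.

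Hspa5 (chromosome 2, 34772090 to 34776529) encodes BiP, the HSP70 chaperone of the ER lumen and the standard gauge of the unfolded protein response. No virus moved it beyond the spread between libraries. At 8 h it averaged 221 ± 15.7 scaled FPKM in S40A-S133A and 222 ± 43.2 in S133A (SD, n = 2 each), and 192 ± 39.9 in S40A, 224 ± 43.1 in WT and 208 ± 36.7 in GFP (SD, n = 4 each). S40A minus GFP was -0.11 (95% interval -0.52 to 0.29, adjusted p = 0.97) and WT minus GFP was 0.10 (-0.31 to 0.51, adjusted p = 1). Without replicate 2 of GFP they were -0.19 and 0.02. S40A minus WT, given without a test, was -0.21, lower in 2 of 4 runs and higher in the other 2. At 4 h it averaged 243 ± 15.1 in S40A, 257 ± 5.22 in WT and 239 ± 36.3 in GFP (SD, n = 2 each).

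Creld2 (chromosome 15, 88819646 to 88826681) encodes a secreted, ER stress-inducible protein with isomerase activity, and Manf (chromosome 9, 106887415 to 106891938) encodes a BiP-binding factor that stressed cells secrete and that supports neurons. Creld2 averaged 10.4 ± 0.953 in S40A-S133A and 9.78 ± 2.82 in S133A (SD, n = 2 each), and 10.2 ± 1.69 in S40A, 11.7 ± 1.89 in WT and 10.7 ± 0.926 in GFP at 8 h (SD, n = 4 each). S40A was below WT in 4 of 4 runs for Creld2, by 0.11 to 0.23 (differences of -0.11 to -0.23), and the groups overlapped. A lower Creld2 was not particular to S40A, since the other mutant groups lay below WT as well. S133A minus WT was -0.28 (-0.69 to 0.14), and within runs D1 and D2 it was -0.32 and -0.24. S40A-S133A minus WT was -0.18 (-0.59 to 0.23), and neither difference was called. Manf was between 19.6 and 27.0 in all 16 libraries at 8 h, and WT minus GFP was 0.16 (-0.04 to 0.36, adjusted p = 1), with a higher WT library in 2 of 4 runs. Without replicate 2 of GFP the Manf difference was 0.08.

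Herpud1 (chromosome 8, 94386500 to 94395358), an ER membrane protein of ER-associated degradation, had the narrowest intervals of the 9 genes in the S40A and WT comparisons with GFP at 8 h. Its means were 23.9 ± 2.11 in S40A-S133A and 24.4 ± 1.26 in S133A (SD, n = 2 each), and 24.8 ± 1.42 in S40A, 24.7 ± 1.52 in WT and 24.5 ± 2.74 in GFP (SD, n = 4 each). S40A minus GFP was 0.02 (-0.13 to 0.17, adjusted p = 0.997) and WT minus GFP was 0.02 (-0.13 to 0.16, adjusted p = 1). Without replicate 2 of GFP both were -0.01.

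Among the transcription factors, Xbp1 (chromosome 11, 5520641 to 5525993) is read here as the sum of its spliced and unspliced messengers. It averaged 38.5 ± 3.25 in S40A, 37.4 ± 6.11 in WT and 39.5 ± 4.11 in GFP at 8 h (SD, n = 4 each). Atf4 (chromosome 15, 80255184 to 80257545), the effector of eIF2 phosphorylation, averaged 289 ± 49.9 in S40A, 299 ± 91.9 in WT and 291 ± 89.6 in GFP (SD, n = 4 each). Its differences were small beside that spread: 0.03 (-0.46 to 0.53, adjusted p = 1) for S40A minus GFP and 0.04 (-0.45 to 0.54, adjusted p = 1) for WT minus GFP, and without replicate 2 of GFP -0.02 and -0.01. Atf5 (chromosome 7, 44812256 to 44816658), a relative of Atf4 under the same kind of translational control, averaged 25.6 ± 7.63 in S40A, 20.2 ± 4.22 in WT and 24.9 ± 8.81 in GFP (SD, n = 4 each). Within runs Atf5 was lower in WT than in GFP in 4 of 4 (by -0.47 to -0.01) and higher in S40A than in WT in 4 of 4 (by 0.15 to 0.45). WT minus GFP for Atf5 was -0.25 (-0.86 to 0.35, adjusted p = 1), and -0.18 without replicate 2 of GFP. With the run as a block it was -0.25 with an SE of 0.10 (adjusted p = 0.934), and S40A minus WT, at 0.31, was not tested.

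Ddit3 (chromosome 10, 127290793 to 127296288) encodes CHOP, the factor that drives cell death in prolonged stress. It was listed at 15.1 scaled FPKM in replicate 1 of WT at 4 h, at 11.4 in replicate 1 of S40A-S133A at 8 h and at 12.0 in replicate 3 of GFP at 8 h, and at 0 in the other 19 libraries. Its entry overlaps that of Mars, a tRNA synthetase gene measured at 23.5 to 40.5 in all libraries, and a 0 can be a failed estimate, so no mean, fold change or test is given for it. Ddit4 (chromosome 10, 59949675 to 59951770) encodes REDD1, an inhibitor of mTORC1 that ATF4, glucocorticoids and low oxygen are known to raise. At 8 h it averaged 76.1 ± 6.04 in S40A-S133A and 73.5 ± 4.80 in S133A (SD, n = 2 each), and 79.0 ± 15.3 in S40A, 82.5 ± 14.6 in WT and 84.9 ± 9.47 in GFP (SD, n = 4 each). At 4 h it was 87.6 and 80.7 in S40A (runs A and B), 91.9 and 86.0 in WT, and 78.5 and 70.4 in GFP, so both CREB groups lay above both GFP libraries. The differences at 4 h were 0.18 for S40A minus GFP (-0.14 to 0.49, adjusted p = 1) and 0.25 for WT minus GFP (-0.06 to 0.57, adjusted p = 1). With the run as a block the intervals were 0.01 to 0.34 and 0.09 to 0.42 (adjusted p = 1 for each). They share the 2 GFP libraries.

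**Figure D2:**
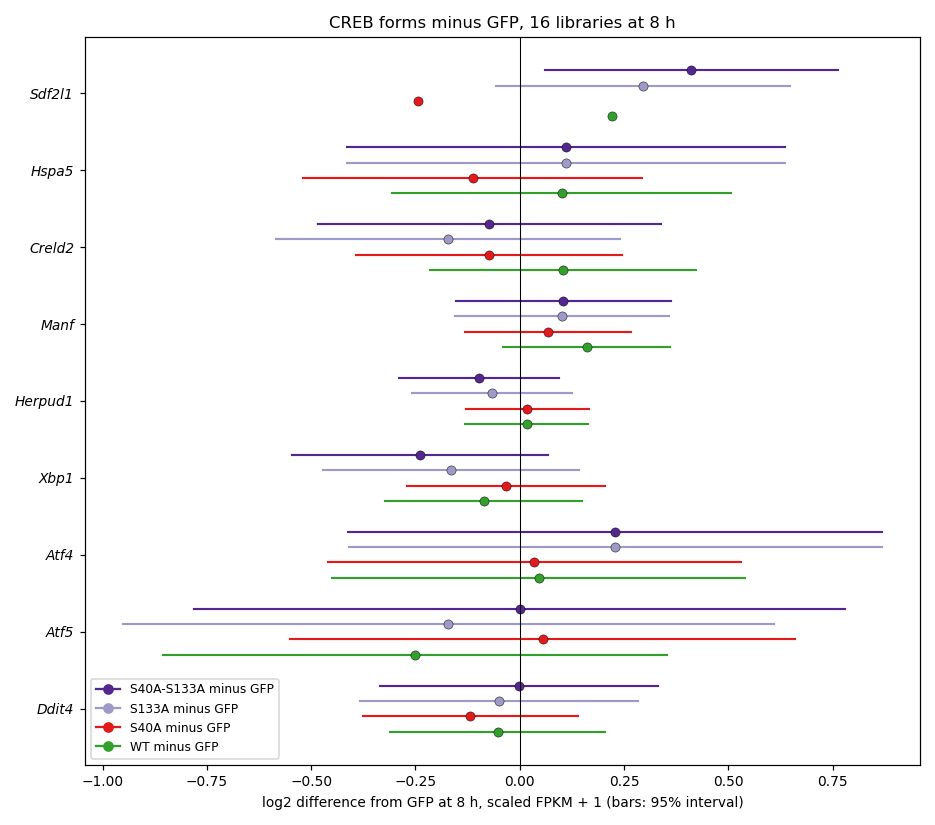
Log2 differences (x axis) of each CREB form from GFP at 8 h for 9 genes, with 95% intervals from the limma fit of 16 libraries. Sdf2l1 has no interval for S40A and WT because their contrast was used to choose it. All intervals drawn include 0 except that of S40A-S133A minus GFP for Sdf2l1 (0.06 to 0.76), which did not pass the adjustment over all genes.

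In all, 0 members were called in any comparison between viruses. In the 8 h fit, whose comparisons share libraries, the share of all genes tested that was called was 0.00827% for S40A minus GFP, WT minus GFP, S40A-S133A minus WT and S40A-S133A minus S40A. It was 0.0165% for S40A-S133A minus GFP and S133A minus WT, and 0.0248% for S133A minus GFP, S40A-S133A minus S133A and the mean of the 4 CREB forms minus GFP. At 4 h the share was 0.091% for S40A minus GFP and S40A minus WT and 0.0993% for WT minus GFP. With so few genes called anywhere, the count of 0 does not set these genes apart. In the limma fits without the run as a block, 0 of the 8 members other than Sdf2l1 and Ddit3 had an unadjusted p under 0.05 in each of the 9 comparisons at 8 h. At 4 h 0 of 9 did in each comparison, and at 8 h Sdf2l1 did in S40A-S133A minus GFP. With the run as a block, limma gave such a p for Ddit4 at 4 h (0.0394 for S40A minus GFP and 0.0129 for WT minus GFP). At 8 h it did so for Atf5 in WT minus GFP (0.0265), Creld2 in S133A minus WT (0.0132) and Sdf2l1 in S40A-S133A minus GFP (0.0262). The number of all genes at that level with the block was not computed, so nothing is read from these. In the fits without the block, the genes at that unadjusted level, of 12085 tested, numbered 713 for S40A minus GFP and 129 for WT minus GFP at 8 h. They numbered 287 for S133A minus GFP, 422 for S40A-S133A minus GFP and 618 for the mean of the CREB forms minus GFP. For S133A minus WT, S40A-S133A minus WT, S40A-S133A minus S40A and S40A-S133A minus S133A they numbered 168, 191, 247 and 42. At 4 h they numbered 59 for S40A minus GFP, 42 for WT minus GFP and 38 for S40A minus WT. With so few genes at that level, the counts of 0 do not set the members apart. At 4 h, members whose groups did not overlap were Atf5 and Ddit4 for S40A minus GFP (9.56% of all genes tested) and Manf, Atf5 and Ddit4 for WT minus GFP (9.24%), and 0 members for S40A minus WT (8.99%). At 8 h, 0 members had groups that did not overlap for S40A minus GFP (3.16%) and S40A-S133A minus S133A (8.67%), and for WT minus GFP (0.488%) Sdf2l1 did, from which nothing is read. The change of the virus effect between 4 and 8 h was called for 0 of the 8 members other than Sdf2l1 and Ddit3 (adjusted p = 1 for each), with 0.00827% of all genes called for S40A minus GFP and 0.0165% for WT minus GFP.

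The wider pathway gave the same counts in the 8 h virus comparisons. For the mean of the CREB forms minus GFP, 0 of 24 tested ER chaperone and disulfide isomerase genes were called (median difference 0.01), 0 of 26 genes of ER-associated degradation and translocation (0.05), 0 of 18 sensors and eIF2 pathway genes (-0.02) and 0 of 36 ATF4 and CHOP target genes (-0.01), beside a median of 0.01 over all genes tested. The highest and lowest values were 0.31 for Cebpb, a CHOP partner, and -0.62 for Slc7a11, the cystine transporter, both among the ATF4 and CHOP targets. All 12 cytosolic heat shock genes lay below 0, while 52.0% of all genes tested lay above it (list median -0.19), led by Hspb1 at -0.87 and Hspa1a at -0.86, and 0 passed the test. The list values include replicate 2 of GFP (run C2) and were not computed without it. In run C2 minus run C1, over 3 pairs, the heat shock median was 0.32, with 10 genes above 0 and 2 below. There Hspb1 was at 1.14 and Slc7a11 at 1.33, and the part of that GFP library was not tested. Of 15 glucocorticoid and hypoxia genes, responsive to known inducers of Ddit4, 0 were called (median -0.10). Fewer cells of a type and less RNA per cell cannot be told apart in these bulk libraries.

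The run took a larger share of the variation than the virus in most of the members. In the 12 libraries of S40A, WT and GFP over runs C1, C2, D1 and D2, the run took 78.5% of the sum of squares for Atf5, 73.1% for Creld2, 70.2% for Atf4, 69.9% for Herpud1, 68.9% for Ddit4, 62.1% for Xbp1, 45.8% for Hspa5 and 33.1% for Manf. The virus took between 0.272% (Atf4) and 23.2% (Manf) of it for those 8 genes. Sdf2l1 had the opposite order, with 10.5% for the run and 62.6% for the virus, a share that holds the contrast on which it was chosen. A larger share for the run than for the virus was also found for 80.0% of all genes tested, whose medians were 39.5% for the run and 13.5% for the virus, so the order in 8 of 9 members is that of the table as a whole. Runs have 3 degrees of freedom and viruses 2, which alone would give shares of 27.3% and 18.2%. Per degree of freedom the run exceeded the virus in 7 of 9 members and in 69.5% of all genes tested, and for Manf the order turned (11.0% for the run and 11.6% for the virus).

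**Figure D3:**
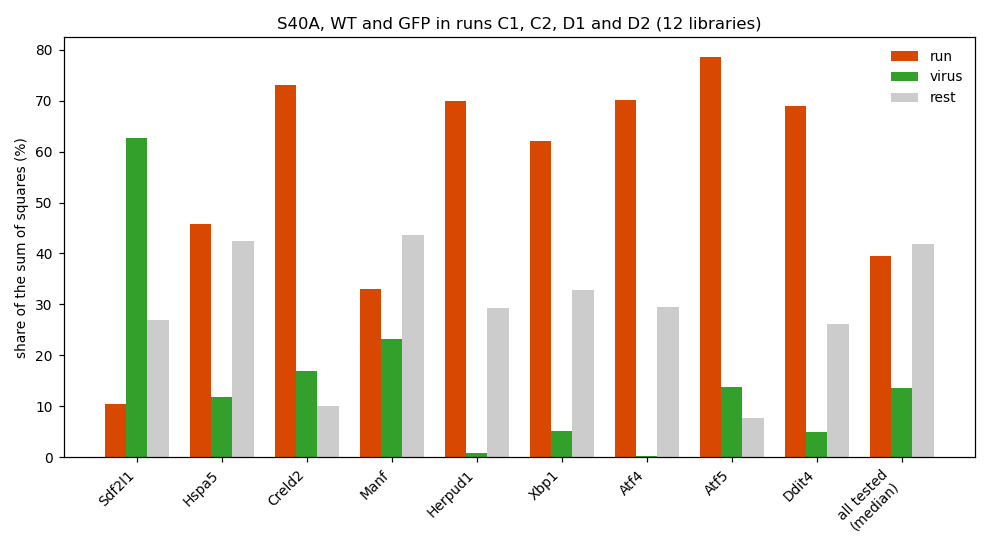
Share of the sum of squares of log2(scaled FPKM + 1), in percent from 0 on the y axis, taken by run, by virus and by the rest, for 9 genes and as the median of each share over all genes tested, in 12 libraries. The run bar is the tallest of the 3 for 7 genes, the rest for Manf, and the virus for Sdf2l1.

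Between the runs of the later 8 h set, Atf5, Hspa5, Creld2 and Herpud1 rose in run D2. Of the 9 genes measured in all libraries, 4 were called higher in D2 than in D1 and 0 lower, in a comparison in which 30.3% of all genes tested were called (13.3% higher and 17.0% lower). With the FPKM as deposited, without scaling, the median over all genes shifted to -0.13 and the calls over all genes split into 1008 higher and 4498 lower, against 1610 higher and 2052 lower with scaling. The p-values measure the spread between libraries of a run, which may share a culture. Atf5 changed most. In run D2 it was 34.1 scaled FPKM with S40A-S133A, 27.0 with S133A, 36.5 with S40A, 26.4 with WT and 36.9 with GFP, and in run D1 it was 18.6 with S40A-S133A, 18.3 with S133A, 18.8 with S40A, 16.9 with WT and 17.0 with GFP. The 5 libraries of each run did not overlap, and the difference was 0.80 (SE 0.09, adjusted p = 0.00571). The share of all genes whose runs do not overlap was not computed, so nothing is read from that separation. The entry of Atf5 overlaps that of Nup62, a nuclear pore gene, and the sources used here do not state how strand was handled. Nup62 differed by 0.06 (adjusted p = 0.296), and its part in the Atf5 value was not tested.

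Hspa5 followed. In run D2 it was 232 with S40A-S133A, 253 with S133A, 252 with S40A, 231 with WT and 239 with GFP, and in run D1 it was 209.5 with S40A-S133A, 192 with S133A, 178 with S40A, 166 with WT and 174 with GFP. The difference was 0.39 (SE 0.06, adjusted p = 0.0117). Creld2 was 11.0 with S40A-S133A, 11.8 with S133A, 12.3 with S40A, 14.1 with WT and 12.1 with GFP in run D2, and 9.70 with S40A-S133A, 7.79 with S133A, 8.34 with S40A, 9.98 with WT and 10.2 with GFP in run D1. The Creld2 difference was 0.38 (SE 0.07, adjusted p = 0.0182). Herpud1 was higher in run D2 in 5 of 5 pairs, by 0.10 to 0.17, with a difference of 0.14 (SE 0.03, adjusted p = 0.0182), but without scaling the Herpud1 difference was 0.01 (adjusted p = 0.834).

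The remaining members did not pass. Atf4 was 309 with S40A-S133A, 285 with S133A, 347 with S40A, 251 with WT and 327 with GFP in run D2, and 259.7 with S40A-S133A, 282 with S133A, 241 with S40A, 193 with WT and 168 with GFP in run D1. Every pair was higher in D2, by 0.02 to 0.96, and the difference was 0.43 (SE 0.14, adjusted p = 0.0703). The differences were 0.16 for Xbp1, 0.12 for Manf, 0.09 for Ddit4 and -0.08 for Sdf2l1 (adjusted p from 0.148 to 0.613). Without any 1 library of the WT or S40A pairs of the set, 2 members remained called, Atf5 and Hspa5. Creld2 was also lost without either S133A library, and Herpud1 without either S40A-S133A library.

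The run difference was not limited to libraries with a CREB virus. The GFP pair differed by 1.07 for Atf5, 0.46 for Hspa5, 0.96 for Atf4 and 0.23 for Creld2, within or above the range of the CREB pairs. Creb1 differed between the runs as well: it was 1837 to 2312 in D2 and 568 to 757 in D1 with a CREB virus, against 11.2 in D2 and 14.9 in D1 with GFP. Cell type markers moved too, and their part in the result was not tested. The summed level of the 9 astrocyte and radial glia markers was 127 to 293 in D2 and 87.5 to 347 in D1, with 8 of 9 above 0 (median 0.47) and 0 called, and that of the 10 excitatory neuron markers was 783 to 894 in D2 and 944 to 1083 in D1, with 3 called lower (Tubb3, Neurod6 and Map2). Of the 12 microglia markers, summing to 5.66 to 9.58 in D2 and 3.59 to 7.48 in D1, only Tyrobp and Cd68 reached the minimum for testing, and Tyrobp was called higher, while P2ry12 stayed under 0.1 in all libraries. The inhibitory neuron markers summed to 417 to 614 in D2 and 305 to 492 in D1, with 3 of 10 called higher (Gad2, Dlx2 and Dlx5), those of the oligodendrocyte lineage to 33.5 to 67.2 in D2 and 26.6 to 53.1 in D1, with 0 called, and those of vessels and fibroblasts to 4.42 to 7.65 in D2 and 2.68 to 5.52 in D1, with Col1a1 called higher.

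**Figure D4:**
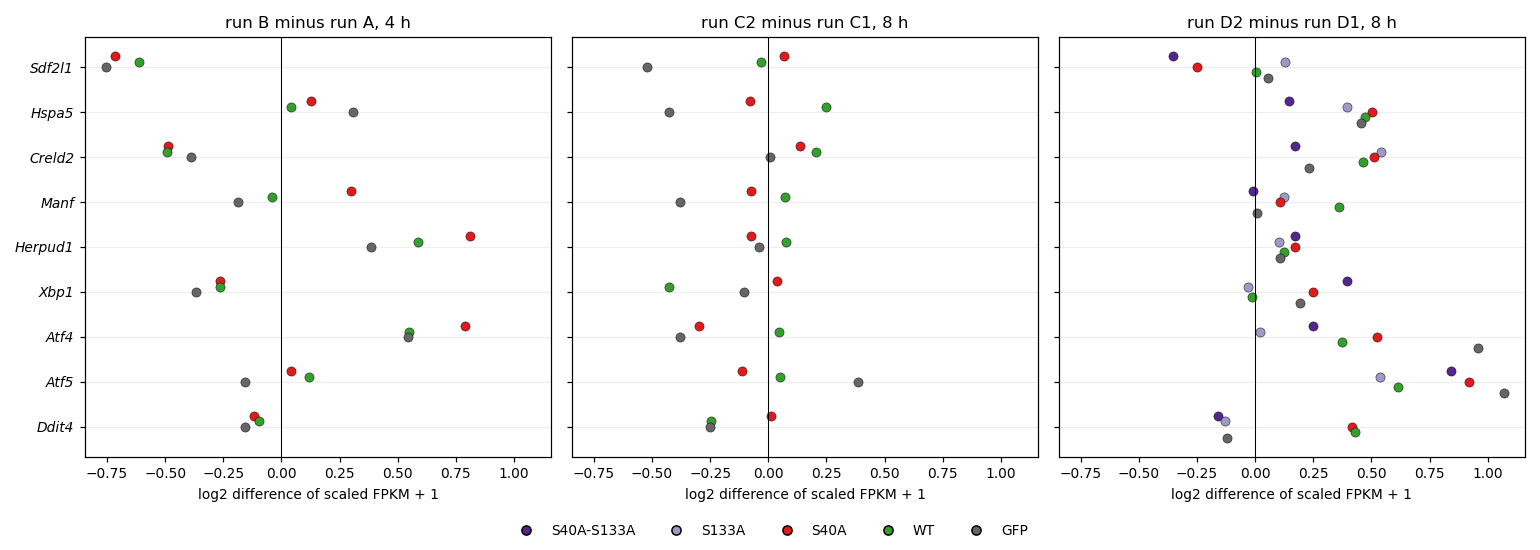
Log2 difference between runs (x axis) of each pair of libraries with the same virus, for 9 genes in runs B and A at 4 h (left), C2 and C1 at 8 h (middle) and D2 and D1 at 8 h (right). Points are coloured by virus. For Atf5 all 5 pairs of D2 and D1 lie between 0.54 and 1.07, and for Sdf2l1 all 3 pairs of B and A lie between -0.75 and -0.61.

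The counts in the wider lists stand beside 30.3% of all genes called in this comparison, 13.3% higher and 17.0% lower. ATF4 and CHOP targets were called higher in D2 for 22 of 36 tested and lower for 0, with a median difference of 0.35 beside -0.02 over all genes tested. They were led by Atf3, a stress-induced repressor, at 1.38 (adjusted p = 0.00309) and Gdf15, a secreted stress cytokine, at 1.02 (adjusted p = 0.0279). Amino acid genes were among them: Psat1 and Psph of serine synthesis at 0.64 and 0.62, the asparagine synthetase Asns at 0.51, Mthfd2 of mitochondrial folate metabolism at 0.63 and the transporter subunits Slc3a2 and Slc7a5 at 0.62 and 0.58 (adjusted p from 0.00386 to 0.0255). So were Cebpb at 0.90, the translation repressor Eif4ebp1 at 0.74 and Sesn2, an mTORC1 inhibitor, at 0.70. The lowest were Chac1, a glutathione-degrading enzyme, at -0.27 and Vldlr at -0.04, neither called. Without 1 library of the S40A or the S40A-S133A pair 13 were called higher, without 1 of the S133A, WT or GFP pairs 15, 16 or 20, and 0 were lower in each case. Without scaling 17 of 35 were higher and 2 lower, with a median of 0.24.

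Among 18 tested sensors and eIF2 pathway genes, 4 were higher in D2, led by Eif2ak3, which encodes PERK, at 1.24 (adjusted p = 0.00244) and the eIF2 phosphatase subunit Ppp1r15b at 1.17 (adjusted p = 0.00376), and 2 were lower, Mbtps1 at -0.31 and Creb3 at -0.25. Of 24 ER chaperone genes, 7 were higher, with Dnajb9, an IRE1-XBP1 target co-chaperone, at 0.73 and Ero1lb, an ER oxidase, at 0.46, and Creld1 was lower at -0.22. Without scaling the chaperone counts were 3 higher and 3 lower, and without any 1 library of the S40A, WT or S133A pairs they were 3 higher and 0 lower. Of 26 genes of ER-associated degradation and translocation, 4 were higher, led by Herpud2 at 0.41 and Sec61b at 0.39, and 2 were lower, among them Sel1l at -0.22. Outside the ER, 6 of 12 heat shock genes were higher, led by Bag3 at 1.17 and Hspb1 at 0.79, and Hspa8 was lower at -0.52. Of 15 glucocorticoid and hypoxia genes 6 were higher, with Klf9 at 1.80 and Adm at 1.12, and 3 were lower, with Sesn1 at -0.45 and Ndrg1 at -0.40.

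**Figure D5:**
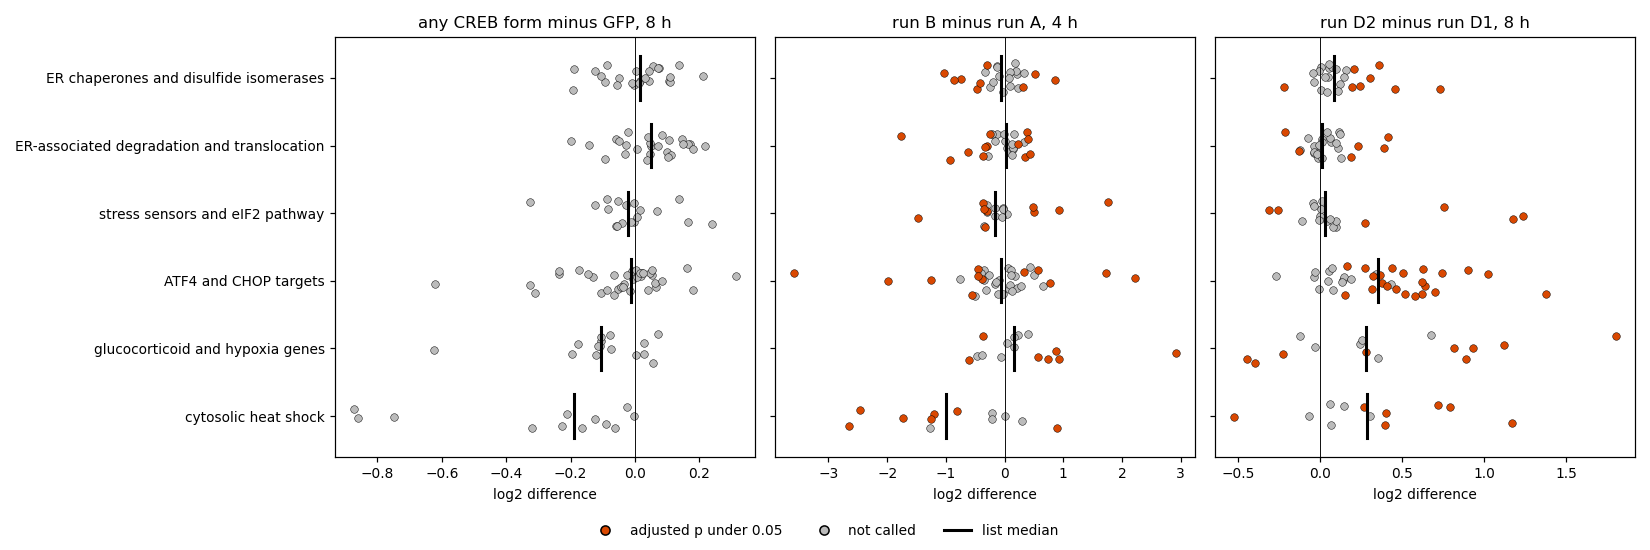
Log2 differences (x axis, with its own scale in each panel) of the tested genes of 6 lists, for the mean of the CREB forms minus GFP at 8 h (left), run B minus run A at 4 h (middle) and run D2 minus run D1 at 8 h (right). Orange points passed an adjusted p under 0.05 and black bars are list medians. No point is orange on the left, while 22 of 36 ATF4 and CHOP targets are orange and above 0 on the right.

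The runs at 4 h differed in another pattern. In run B against run A, 5 of the 9 members were called, where 40.8% of all genes tested were called (20.0% higher and 20.8% lower). Without scaling the median over all genes shifted to -0.25 and the calls split into 1145 higher and 4909 lower, against 2411 higher and 2515 lower with scaling. Atf4 and Herpud1 were higher in B. Atf4 was 411 with S40A, 427 with WT and 343 with GFP in run B, and 238 with S40A, 292 with WT and 235 with GFP in run A (0.63, SE 0.10, adjusted p = 0.0202). Herpud1 was 28.5 with S40A, 30.2 with WT and 23.9 with GFP in run B, and 15.8 with S40A, 19.8 with WT and 18.1 with GFP in run A (0.59, SE 0.10, adjusted p = 0.0248). For both genes the runs did not overlap, from which nothing is read because the share over all genes was not computed. Sdf2l1, Creld2 and Xbp1 were lower in B. Sdf2l1 was 3.21 with S40A, 3.16 with WT and 3.06 with GFP in run B, and 5.92 with S40A, 5.37 with WT and 5.85 with GFP in run A (-0.69, SE 0.08, adjusted p = 0.0119). Creld2 was 8.11 with S40A, 8.40 with WT and 8.09 with GFP in run B, and 11.8 with S40A, 12.2 with WT and 10.9 with GFP in run A (-0.46, SE 0.07, adjusted p = 0.0185). Xbp1 was 29.0 with S40A, 31.9 with WT and 28.0 with GFP in run B, and 35.0 with S40A, 38.5 with WT and 36.4 with GFP in run A (-0.30, SE 0.05, adjusted p = 0.0225). The runs did not overlap for these genes either, and again nothing is read from it.

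The level of Sdf2l1 in run A, 5.37 to 5.92, was above that of the other 19 libraries, which reached 4.94. The share of all genes that set run A apart in this way was not computed, so nothing is read from it. Without any 1 of the WT or S40A libraries at 4 h, 0 members were called between runs B and A, with the differences keeping their signs. Hspa5 (0.16, adjusted p = 0.222), Ddit4 (-0.12, adjusted p = 0.106), Manf (0.02) and Atf5 (0.00) were not called. Without scaling the sign of Hspa5 turned (-0.12), Ddit4 (-0.40) and Atf5 (-0.27) were called lower, and Herpud1 (0.33, adjusted p = 0.052) was not called. Run A stood apart in its files: each of its 3 tables marked 347 entries as low in data, against 0 in the other 19 libraries, and its FPKM summed to 422524 to 444454, against 310448 to 394978 elsewhere. The median difference between B and A also moved with transcript length, at -0.08 for 461 genes under 1000 bases and 0.06 for 4528 genes of 4000 bases or more. The summed astrocyte and radial glia markers were 275 to 382 in B and 314 to 848 in A, and the excitatory neuron markers 810 to 875 in B and 693 to 795 in A, with 5 of 10 called higher and 1 lower. Inhibitory neuron markers summed to 623 to 722 in B and 586 to 799 in A, with 3 of 10 called higher (Dlx5, Dlx1 and Calb2), oligodendrocyte lineage markers to 63.5 to 110 in B and 56.6 to 85.1 in A, with Olig2 called higher and Mog lower, microglia markers to 12.1 to 21.0 in B and 16.8 to 19.0 in A, and vascular and fibroblast markers to at most 4.26 in B and 2.99 in A. The part of these in the differences was not tested.

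Each list held genes called in both directions between the 4 h runs, where 20.0% of all genes tested were called higher and 20.8% lower. Of 36 ATF4 and CHOP targets, 5 were higher in B and 7 lower, with a median of -0.06, and the extremes were Atf3 at 2.23 and Slc7a11 at -3.58. Of 24 ER chaperone genes, 3 were higher, among them Dnajb9 at 0.85, and 6 were lower, among them Fkbp2 at -1.02 and Pdia5 at -0.87. Of 26 genes of ER-associated degradation and translocation, 5 were higher and 7 lower, from 0.43 for Ssr1 to -1.77 for Sec61g, a subunit of the Sec61 channel. Of 18 sensors and eIF2 pathway genes, 4 were higher and 5 lower, with Ppp1r15b at 1.77, Eif2ak3 at 0.92 and Creb3l1 at -1.47. Of 12 heat shock genes 1 was higher (Dnajb1, 0.89) and 6 were lower, led by Hspa8 at -2.65 and Hspa1a at -2.47, and of 15 glucocorticoid and hypoxia genes 5 were higher, led by Klf9 at 2.92, and 2 lower. These counts rest on 3 pairs, and without 1 library of the S40A pair 0 chaperone genes and 2 higher and 2 lower ATF4 and CHOP targets were called, while calls over all genes numbered as few as 479, against 4926 with all libraries. Creld2 was lower in B than in A and higher in D2 than in D1. How these 2 run differences compare was not tested.

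Runs C2 and C1, the earlier 8 h set, differed in few genes. Limma called 0 of the 9 members and 0.0331% of all genes tested (4 genes, and 462 at an unadjusted p under 0.05, where the members numbered 0). Sdf2l1 was lower in C2 in the GFP pair by -0.52 and differed by 0.07 in the S40A pair and -0.03 in the WT pair, so its pooled value of -0.16 rests on the GFP library that stood apart. None of the genes of the 6 lists was called.

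Levels at the 2 times are described without a test, since each time has its own runs. Sdf2l1 ranged from 1.94 to 4.94 with a median of 3.26 in the 16 libraries at 8 h and from 3.06 to 5.92 with a median of 4.29 in the 6 at 4 h. Hspa5 had medians of 218 at 8 h and 254 at 4 h, Xbp1 38.0 at 8 h and 33.5 at 4 h, and Atf4 288 at 8 h and 318 at 4 h. For all 9 genes the ranges at the 2 times overlapped.

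The members did not vary as 1 group. Of the 36 pairs of genes, 3 had a Spearman correlation above 0.5 over the 22 libraries, which share runs: Hspa5 with Atf4 (0.71), Hspa5 with Manf (0.67) and Manf with Atf4 (0.55). The other 33 lay between -0.5 and 0.5, the lowest being Sdf2l1 with Herpud1 (-0.42). The share of all gene pairs above 0.5 was not computed, so these counts do not set the members apart from other genes. Over all genes tested, those most like Sdf2l1 were Stk38 (0.83), Gsg1l (0.81), Smn1 (0.79), the ER disulfide isomerase Pdia6 (0.79) and Xrcc5 (0.78). Those most like Hspa5 were Rbbp6 (0.97), Hhipl2 (0.95), Mex3c (0.95), Sf1 (0.95) and Cldn15 (0.95), so that the closest genes were not ER chaperones. For Ddit4 they were Snrpf (0.80), Use1 (0.77), Gsn (0.77), Gm6251 (0.74) and Heatr5a (0.73). The libraries share runs here too, and these values are a description.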

How the data were processed

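Gene tables of 22 RNA-seq libraries were used, each holding 1 FPKM value per gene that the authors deposited. The submitters' processing notes name CASAVA 1.7, Bowtie 0.12.2 and Cufflinks, and the builds mm8 and mm10 with no role. Strand and multi-mapping handling are not given in the sources used here. Gene coordinates are those of the deposited tables, counted from 1, and were taken as mm10 because gene starts such as those of Hspa5, Creld2 and Sdf2l1 equal the RefSeq starts on GRCm38.p6.

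The 23 entries marked as failed were removed, FPKM were scaled between libraries by the median of ratios, and 12085 genes whose mean reached 1 FPKM were tested. Tests were limma 3.58.1 fits (R 4.3.3, trend, two-sided) on log2(scaled FPKM + 1), which understates changes of low genes, with p-values adjusted by Benjamini-Hochberg over every tested gene (threshold 0.05). The fits covered 16 libraries at 8 h with the library set as a term, 6 libraries at 4 h, each pair of runs with the virus as a block, and all 22 libraries for the change of effect with time. Steps were tested on simulated data.

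FPKM carry no counts. The value of 1 read was taken as the median of the 40 lowest non-zero products of FPKM and transcript length in single-transcript genes. This gave the estimated reads, and intervals from them cover counting error only. The labels do not say that replicates are separate cultures, so p-values measure the spread between these libraries, which may be technical. Runs were read from numbers in the file names and replicate numbers. Same-numbered libraries deviated together at 4 h (correlations of deviations from group means 0.54 to 0.56, 3 of 3 pairs of groups over 0.1), so numbers pair samples there. At 8 h they did so in 0 of 3 pairs of groups in runs C1 and C2 and in 8 of 10 in runs D1 and D2.

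The members and lists were chosen with earlier results of these data known. Named genes were all 10 members, the 2 highest and 2 lowest genes of each list, genes called in a list, and the 5 genes most like Sdf2l1, Hspa5 and Ddit4. The value of 1 gene under this rule is not reported here. Likeness was not computed for Ddit3, whose values tie at 0 in 19 libraries. Alternatives were other scalings, a pseudocount of 0.1, no filter on low values, no term for library set, the later set only, the replicate block, no block for virus, and leaving out each library. Promoter sequences came from RefSeq (GRCm38.p6).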

Additional observations from a re-analysis of the deposited data

Results flagged for a closer look

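Of 27 groups of 4 libraries examined for 1 library far from the rest, 3 held one, and chance flags about 1 in 20 groups. Replicate 2 of GFP at 8 h was the lowest of its group for Sdf2l1, at 1.94 scaled FPKM beside 3.06, 3.22 and 3.22, and it is the library that stood apart over all genes. The run D2 library of S40A at 8 h was the highest of its group for Hspa5, at 252 beside 166, 175 and 178. The run D2 library of GFP at 8 h was the highest of its group for Creld2, at 12.1 beside 10.2, 10.3 and 10.3.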

How the results depend on the processing

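The number of members called was 0 in all comparisons between viruses under every alternative, except for a count of 0 to 1 in WT minus GFP and in S40A minus WT at 4 h when 1 library was left out. The 1 is Ddit3 without WT replicate 2, where a lone WT library at 15.1 meets entries listed at 0 and is assumed to vary like the other groups, and nothing is read from it. Between runs B and A the main count of 5 ranged from 0 to 5 when 1 library was left out, and between runs D2 and D1 the main count of 4 ranged from 2 to 4. Over all genes, the calls between runs B and A, 4926 in the main fit, ranged from 479 to 5324 without 1 library, and those between D2 and D1, 3662 in the main fit, from 1581 to 3847 and reached 5506 without scaling. With the replicate block 0 members were called between viruses, and WT minus GFP at 8 h for Atf5 was -0.25 (limma, adjusted p = 0.934). The values of single members numbered 2700 over 15 comparisons and S40A minus WT at 8 h, which was scored by the spread alone. Of them, 2617 stayed on their side of the threshold or within the spread, 46 moved, 35 lost a call and 2 gained one. Comparisons at 4 h with 2 libraries a group rest on 3 residual degrees of freedom in a fit without the run, and intervals there were wide. With the run as a block, on 2 residual degrees of freedom, the SE changed by gene. For S40A minus GFP at 4 h it went from 0.432 to 0.092 for Sdf2l1 and from 0.152 to 0.143 for Manf.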
